A study of Mus musculus with 11 samples.

Results

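Expression of 9 genes of early lymphoid progenitors was followed across LSK cells of wild-type and Phf6-mutant mice: the recombination genes Dntt, Rag1 and Rag2, the receptor genes Flt3, Il7r and Cd27, the regulator Satb1, and the leukocyte genes Lsp1 and Cd52. They were taken by symbol from a table of 55291 genes, where all 9 had a row, and all 9 passed the filter on low counts that left 17183 genes for testing. LSK cells are the bone marrow fraction that lacks lineage markers and carries cKit and Sca-1, and the labels give each library as the RNA of 1 mouse. The groups were WT (wild type, n = 4), KO (Phf6 knock out, n = 3) and Tg (labelled Phf6R274X Tg, n = 4), all on C57BL/6. The labels name neither the promoter of the transgene, nor whether an intact Phf6 gene remains beside it, nor the deleted part of Phf6 in KO, nor the age of the mice. Phf6 encodes a chromatin protein with plant homeodomain fingers.

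Lymphoid priming is the low-level expression of lymphocyte genes in progenitors that can still form myeloid cells. It is strongest in the progenitors that carry the FLT3 receptor on their surface. IL-7 receptor and the RAG recombinase follow as cells commit to the lymphoid lineages, and TdT, the product of Dntt, later diversifies antigen receptor joints.

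Library totals ran from 20990446 to 45632018 counts, and 3 counts, the limit that a count of 0 allows, stood for 0.0656 to 0.144 CPM (a count relative to the TMM-scaled library size). The lowest member count was 26, of Rag2 in Tg replicate 2. Kit (579 to 884 CPM), Ly6a, which encodes Sca-1 (20.04 to 40.6 CPM), and Cd34 (550.2 to 930.2 CPM) were read in every library. Of the lineage markers, Cd3e, Cd8a and Ly6g reached at most 2.00, 3.38 and 0.400 CPM. Phf6 lay at 15.4 to 24.0 CPM in KO, 109.9 to 142 in WT and 183 to 278 in Tg. Xist, the RNA of the inactive X chromosome, lay at 32.7 to 53.8 CPM of library totals in every WT and KO library and at 0.0307 to 0.297 in Tg. The sum of 4 Y-linked genes lay at 49.9 to 367 CPM in Tg and at 0.0329 to 141 in the other libraries, of which 5 (WT replicates 1, 2 and 4, KO replicates 1 and 2) held Xist together with Y-linked reads, both above 1 CPM. Whether each of these 5 came from 1 mouse was not tested, and n and p below take the labels as given. In each comparison with Tg, genotype and this difference in Xist cannot be told apart.

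Levels of different genes were set side by side only as CPM per kilobase of annotated exon. In WT, Dntt led with 222 ± 64.1 (SD, n = 4), followed by Flt3 with 65.5 ± 14.9 and Cd27 with 41.1 ± 7.12. Cd52 (26.2 ± 7.07) and Lsp1 (22.2 ± 3.09) came next, then Satb1 (11.02 ± 2.56), Rag1 (10.8 ± 12.9), Il7r (5.002 ± 3.76) and Rag2 (2.64 ± 1.5). The WT ranges of neighbours were apart for Dntt and Flt3, for Flt3 and Cd27 and for Lsp1 and Satb1, and overlapped for the other 5 neighbouring pairs. In KO the order on all annotated exons was the same, with Dntt at 195 ± 46.1 and Flt3 at 74.8 ± 19.7 (n = 3). In Tg, Dntt (68.5 ± 14.1) and Flt3 (48.0 ± 8.45) overlapped (n = 4), and on the shorter exon set of GENCODE basic transcripts Flt3 (81.0 ± 14.3) had the higher mean and Dntt 73.7 ± 15.2. On that set Cd52 (91.6 ± 14.5) lay above Cd27 (60.4 ± 6.40) in KO, with ranges apart, and Il7r had a higher mean than Rag1 in Tg, with ranges that overlapped. The other genes, Satb1 among them, kept their place on both sets in all 3 groups.

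**Figure D1:**
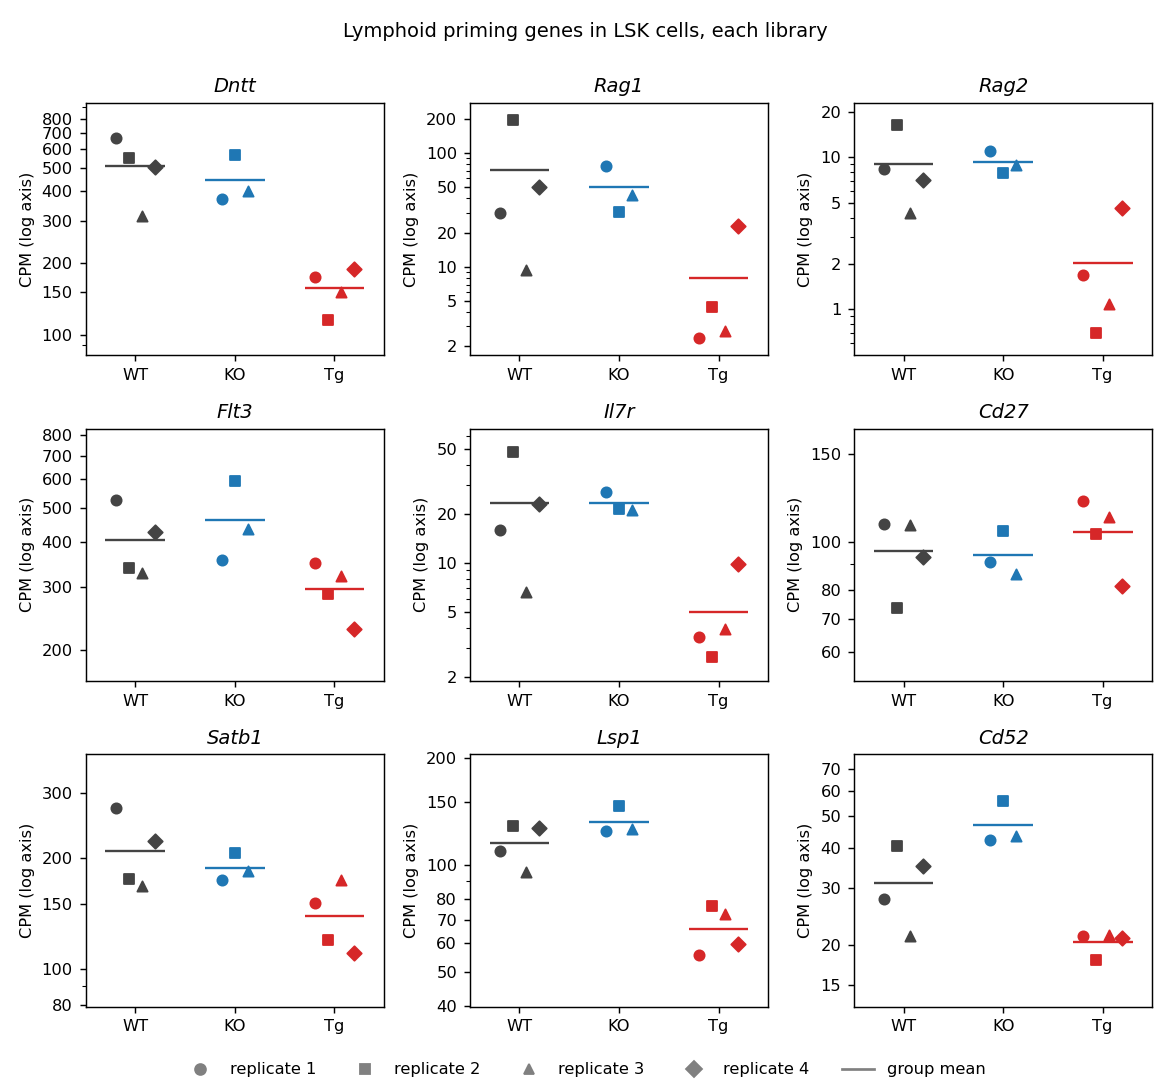
CPM of the 9 genes in each of the 11 libraries (log axis, one point a library, symbol by replicate number, line at the group mean). The Tg points of Dntt and Lsp1 lie below every WT and KO point, and those of Cd27 overlap them, from 81.2 to 121 CPM.

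The first comparison asked whether lymphoid priming differs in Tg from WT. Dntt, Lsp1, Il7r and Rag2 fell in Tg, 4 of the 9 genes, where edgeR called 2.39% of all genes tested lower at a Benjamini-Hochberg adjusted p under 0.05. None rose. A further 4 members, Rag1, Satb1, Cd52 and Flt3, had lower means in Tg and did not pass over all genes, and Cd27 had a higher one. The 8 with lower means each had an unadjusted p under 0.05, beside 22.1% of all genes in either direction. Of the 9 log2 fold changes 8 lay below 0, beside 49.2% of all genes. The median log2 fold change was -0.80 over the 9 members and 0.01 over all genes tested. WT and Tg did not overlap for Dntt and Lsp1, 2 of 9, beside 5.34% of all genes with every Tg library below every WT library. In bulk RNA, fewer cells of a type and less RNA per cell cannot be told apart. Dntt and Lsp1 were called in 22 of 23 alternatives. The exception left out those 5 libraries that held Xist together with Y-linked reads. It kept 1 WT library, replicate 3, and 1 KO library, replicate 3. WT replicate 3 was the lowest WT library for 8 of the 9 genes. The log2 fold changes in this fit were -0.99 for Dntt, -0.52 for Lsp1, -0.41 for Il7r and -1.08 for Rag2. Il7r and Rag2 each lost their call in 14 of 23 alternatives.

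The second comparison set Tg against KO, 2 groups labelled with different Phf6 genotypes. Dntt, Lsp1, Cd52, Il7r and Rag2 fell in Tg, 5 of the 9 genes, beside 3.06% of all genes called lower. None rose. KO and Tg were apart for 7 members, all but Satb1 and Cd27, beside 11.03% of all genes with every Tg library below every KO library. As against WT, 8 of 9 log2 fold changes lay below 0, beside 47.96% of all genes. Each of these 8 had an unadjusted p under 0.05, beside 21.7% of all genes in either direction. The median log2 fold change was -1.20 over the members and 0.01 over all genes. Dntt, Lsp1 and Cd52 were called in 22 of 23 alternatives, again all but the one that kept 1 WT and 1 KO library (0 of 9 called; adjusted p = 0.0797, 0.118 and 0.0550). Il7r lost its call in 14 alternatives and Rag2 in 16. This comparison shares the Tg libraries with the first.

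The comparison of KO with WT called 0 of the 9 genes in edgeR, beside 0.0233% of all genes tested. DESeq2 and limma-voom also called 0. Cd52 alone had an unadjusted p under 0.05, beside 7.09% of all genes. The medians were -0.01 over the members and -0.01 over all genes, with 5 members below and 4 above WT, beside 51.1% of all genes below. The SE ranged from 0.13 for Lsp1 to 0.95 for Rag1 on the log2 scale, so that these values do not show equal levels.

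**Figure D2:**
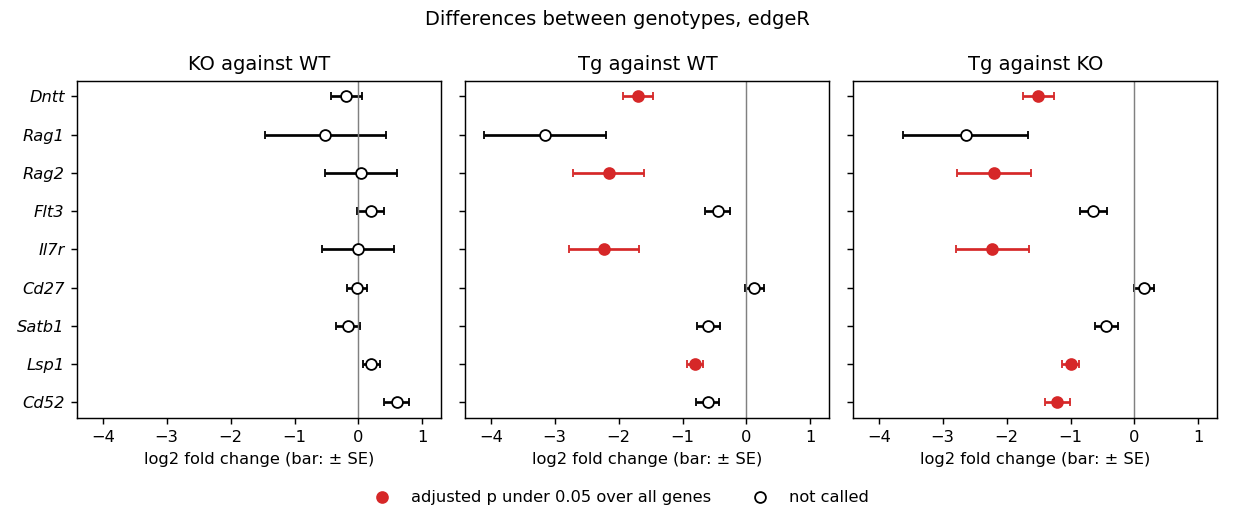
Log2 fold changes of the 9 genes in the 3 comparisons (points, bars ± SE from the edgeR fit of all 11 libraries, red where called over all genes). In both comparisons with Tg, 8 of the 9 points lie below 0, and in KO against WT no point is called.

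Dntt, Rag1 and Rag2 encode the enzymes that build antigen receptor genes. TdT adds nucleotides without a template at the joints, and RAG1 and RAG2 together cut the DNA at the recombination signals. Dntt lies on chromosome 19 (41029275 to 41059525, plus strand, GRCm38). Rag1 (chromosome 2, 101638282 to 101649501, minus strand) and Rag2 (101624718 to 101632529, plus strand) face each other across 5752 bases. Each shares a few exonic bases with the gene model B230118H07Rik, 80 and 208 bases, so reads there may not have been counted. Of the other members, Cd52 shares 172 exonic bases with Crybg2, Cd27 shares 129 with Mir8113 and Satb1 shares 284 with Gm36931 and Gm6934, and the strand setting of the counting is not stated. The sequences before the start sites of these 3 genes and of Il7r are shown because 3 of the 4 were called lower in both comparisons with Tg and Rag1 is the locus partner of Rag2. Each window holds the 250 bases before the annotated start, 5′ to 3′ on the gene's strand, from RefSeq on GRCm38.p6: Dntt chr19:41029025-41029274 (plus), Rag1 chr2:101649533-101649782 (minus), Rag2 chr2:101624462-101624711 (plus) and Il7r chr15:9529877-9530126 (minus). Capitals mark matches, on either strand, to 5 short motifs of lymphoid regulators: TGGGAA (Ikaros type), TGTGGT (RUNX), CAGGTG and CAGCTG (E-boxes) and AGGAAG (ETS).
Dntt: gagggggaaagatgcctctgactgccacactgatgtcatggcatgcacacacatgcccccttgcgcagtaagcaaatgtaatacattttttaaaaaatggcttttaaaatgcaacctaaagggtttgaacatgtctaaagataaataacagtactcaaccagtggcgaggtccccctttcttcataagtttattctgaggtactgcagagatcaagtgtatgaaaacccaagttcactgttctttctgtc
Rag1: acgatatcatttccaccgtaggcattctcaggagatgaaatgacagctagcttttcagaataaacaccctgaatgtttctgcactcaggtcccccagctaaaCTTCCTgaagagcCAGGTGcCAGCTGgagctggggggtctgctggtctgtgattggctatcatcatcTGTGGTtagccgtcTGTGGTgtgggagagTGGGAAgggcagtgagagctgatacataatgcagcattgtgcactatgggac
Rag2: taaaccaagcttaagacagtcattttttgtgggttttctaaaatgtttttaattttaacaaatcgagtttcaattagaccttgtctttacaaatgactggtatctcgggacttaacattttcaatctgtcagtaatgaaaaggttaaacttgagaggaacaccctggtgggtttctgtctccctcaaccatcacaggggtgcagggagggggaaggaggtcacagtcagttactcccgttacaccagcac
Il7r: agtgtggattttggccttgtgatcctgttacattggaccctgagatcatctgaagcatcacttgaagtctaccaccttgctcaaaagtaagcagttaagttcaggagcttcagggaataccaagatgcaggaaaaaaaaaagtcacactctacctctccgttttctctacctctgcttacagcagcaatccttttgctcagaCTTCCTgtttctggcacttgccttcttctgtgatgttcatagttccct

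The Rag1 window held all 5 motifs, with TGTGGT at 2 places, and no match overlapped another. The Il7r window held AGGAAG alone, and the Dntt and Rag2 windows held none of these letters. By GENCODE, Il7r starts at 9530176 on the minus strand, so its window, placed by RefSeq, lies inside that gene model. Of the 9 genes, 7 had a window in the table, and Satb1 had 5. Among these 7 genes the Ikaros-type motif and both E-boxes were found in Rag1 and Satb1, the RUNX motif in Rag1 alone, and the ETS motif in Rag1, Satb1 and Il7r. Over 32851 windows of this length, 21.6% held TGGGAA, 14% TGTGGT, 17.2% CAGGTG, 13% CAGCTG and 29.5% AGGAAG. A match is a description of letters, not of binding.

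Dntt was read at 668, 548, 314 and 506 CPM in WT replicates 1 to 4, at 371, 567 and 401 in KO replicates 1 to 3, and at 175, 115, 151 and 188 in Tg replicates 1 to 4. Every Tg library lay below every WT and KO library, and WT replicate 3 was the lowest of the other 7. Dntt fell by 1.70 on the log2 scale in Tg against WT (SE 0.23, adjusted p = 0.00526, edgeR) and fell by 1.51 against KO (SE 0.24, adjusted p = 0.00654). KO and WT overlapped (-0.19, SE 0.24, adjusted p = 0.903). Leaving out single libraries moved the log2 fold change against WT between -1.87 and -1.55. Within a library, where scaling has no part, Dntt had 0.959 to 1.62 counts for each Flt3 count in WT, 0.921 to 1.04 in KO and 0.401 to 0.824 in Tg. The Tg ratios all lay below those of WT and KO, with Tg replicate 4 the nearest.

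Rag1 was read at 29.6, 197, 9.45 and 50.5 CPM in the 4 WT libraries, at 77.6, 30.1 and 42.5 in KO, and at 2.35, 4.48, 2.72 and 22.7 in Tg. WT replicate 2 held more than any other library, and Tg replicate 4 lay above WT replicate 3, so that Tg and WT overlapped. Tg and KO did not. The log2 fold change was -3.16 against WT (SE 0.96, adjusted p = 0.0819, edgeR) and -2.64 against KO (SE 0.97, adjusted p = 0.139). It was called against WT in 4 of 23 alternatives: without WT replicate 3 (-3.53), without Tg replicate 4 (-4.49), with the Y-linked level as a covariate (-3.63) and in DESeq2 (-3.15). It was -1.88 without WT replicate 2 (adjusted p = 0.247). Against KO it was called in 1, without Tg replicate 4 (-3.97, adjusted p = 0.0473). In KO against WT it was -0.52 with all libraries and 0.75 without WT replicate 2. The SD of Rag1 was 119% of the mean in WT and 122% in Tg, the largest share of the 9 genes in both groups.

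Rag2 was read at 8.42, 16.3, 4.31 and 7.09 CPM in WT, at 11.1, 7.89 and 8.85 in KO, and at 1.68, 0.701, 1.08 and 4.67 in Tg. As for Rag1, WT replicate 2 was the highest library and Tg replicate 4 the highest of its group, above WT replicate 3. Rag2 fell by 2.15 on the log2 scale in Tg against WT (SE 0.55, adjusted p = 0.0486, edgeR) and fell by 2.19 against KO (SE 0.58, adjusted p = 0.0498). With 1 library left out, the call against WT held only without WT replicate 3 or Tg replicate 4, and the adjusted p reached 0.140 without Tg replicate 1. The log2 fold change ran from -2.96 (without Tg replicate 4) to -1.69 (without WT replicate 2). The call against KO held only without WT replicate 2, WT replicate 3 or Tg replicate 4, and the adjusted p reached 0.146 without KO replicate 1. Rag1 had 2.19 to 12.1 counts for each Rag2 count in WT, 3.82 to 7.01 in KO and 1.403 to 6.38 in Tg, so that the ratio overlapped between the groups.

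Among the receptors, IL-7 receptor alpha, the product of Il7r (chromosome 15, 9505788 to 9530176, minus strand), carries survival and growth signals of lymphoid progenitors. Il7r was read at 16.0, 47.7, 6.66 and 23.0 CPM in WT, at 27.1, 21.4 and 21.2 in KO, and at 3.53, 2.64, 3.91 and 9.86 in Tg. Tg replicates 1 to 3 lay below every WT and KO library, and Tg replicate 4 lay above WT replicate 3 only. Il7r fell by 2.23 on the log2 scale in Tg against WT (SE 0.55, adjusted p = 0.0420, edgeR) and fell by 2.22 against KO (SE 0.57, adjusted p = 0.0458). With 1 library left out, this call too held only without WT replicate 3 or Tg replicate 4, and the adjusted p reached 0.131 without Tg replicate 1. The log2 fold change was then -1.60 without WT replicate 2 and -2.80 without Tg replicate 4. Against KO the call held without WT replicate 2, WT replicate 3 or Tg replicate 4, and the adjusted p reached 0.132 without KO replicate 1. KO and WT means differed by less than the spread (23.2 ± 3.33 and 23.3 ± 17.5 CPM, SD, n = 3 and 4).

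Flt3 (chromosome 5, 147330741 to 147400489, minus strand) encodes the receptor tyrosine kinase that marks lymphoid-primed multipotent progenitors. It was read at 525, 338, 328 and 429 CPM in WT, at 356, 595 and 435 in KO, and at 350.0, 286, 321 and 229 in Tg. Tg overlapped WT through Tg replicate 1 and lay below all KO libraries. The log2 fold change was -0.45 against WT (SE 0.19, adjusted p = 0.204, edgeR) and -0.64 against KO (SE 0.21, adjusted p = 0.0983), and neither passed. DESeq2 called the latter (adjusted p = 0.0235). Against WT, Flt3 was called in none of the 23 alternatives.

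Cd27 (chromosome 6, 125232622 to 125237010, minus strand) encodes a receptor of the TNF receptor family carried by multipotent progenitors and lymphocytes. It was read at 108, 73.4, 108 and 93.1 CPM in WT, at 90.9, 105 and 86.2 in KO, and at 121, 104, 112 and 81.2 in Tg. All 3 groups overlapped. The log2 fold change was 0.13 against WT (SE 0.14, adjusted p = 0.664, edgeR) and 0.15 against KO (SE 0.16, adjusted p = 0.640). Cd27 was the one member with a higher mean in Tg than in both other groups. Its lowest libraries, WT replicate 2 and Tg replicate 4, were the highest of their groups for Rag1, Rag2 and Il7r.

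SATB1, the product of Satb1 (chromosome 17, 51736187 to 51833290, minus strand), organises chromatin loops and acts in lymphoid specification of stem cells. Satb1 was read at 273, 175, 168 and 222 CPM in WT, at 174, 206 and 185 in KO, and at 151, 120, 175 and 111 in Tg. Tg replicate 3 lay within the WT and KO ranges and the other 3 Tg libraries below both. The log2 fold change was -0.59 against WT (SE 0.17, adjusted p = 0.0751, edgeR) and -0.44 against KO (SE 0.19, adjusted p = 0.200). It was called against WT in 3 of 23 alternatives: DESeq2 (adjusted p = 0.0121) and the fits without WT replicate 3 or Tg replicate 3.

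LSP1, an actin-binding protein of leukocytes, is encoded by Lsp1 (chromosome 7, 142460809 to 142494867, plus strand). Lsp1 was read at 109, 129, 95.3 and 127 CPM in WT, at 124, 146 and 126 in KO, and at 55.7, 76.5, 72.4 and 59.6 in Tg. The Tg libraries all lay below the others, and the spread within a group was the smallest among the members that fell against WT. Lsp1 fell by 0.80 on the log2 scale against WT (SE 0.13, adjusted p = 0.0102, edgeR) and fell by 0.999 against KO (SE 0.13, adjusted p = 0.00279). Leaving out single libraries moved the former between -0.89 and -0.73, with adjusted p up to 0.0350 (without WT replicate 2).

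CD52, a small glycoprotein anchored in the membrane of lymphocytes and other leukocytes, is encoded by Cd52 (chromosome 4, 134082448 to 134095082, minus strand). Cd52 was read at 27.7, 40.4, 21.3 and 35.2 CPM in WT, at 42.2, 55.6 and 43.4 in KO, and at 21.3, 18.0, 21.5 and 20.96 in Tg. KO was the highest group and lay above every WT library, beside 3.79% of all genes with every KO library above every WT library. Cd52 fell by 1.20 on the log2 scale in Tg against KO (SE 0.19, adjusted p = 0.00578, edgeR). Neither the log2 fold change of 0.60 in KO against WT (SE 0.19, adjusted p = 0.573) nor that of -0.61 in Tg against WT (SE 0.18, adjusted p = 0.0733) passed. The latter was called without WT replicate 3 (-0.76, adjusted p = 0.0234), with the Y-linked level as a covariate (adjusted p = 0.0373) and in DESeq2 (adjusted p = 0.0157).

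**Figure D3:**
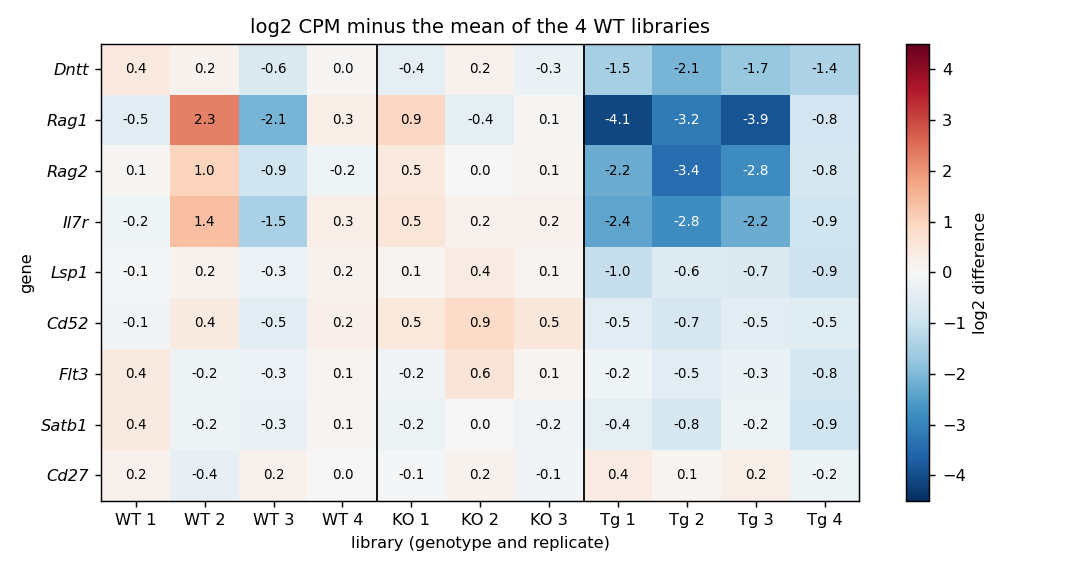
Log2 CPM of each gene (rows) in each library (columns) minus the mean of the 4 WT libraries (blue lower, red higher). Rag1, Rag2 and Il7r vary most within WT and Tg, with WT replicate 2 and Tg replicate 4 the highest of their groups, while the Dntt and Lsp1 rows are lower in each Tg library than in each WT and KO library.

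The libraries of a group did not vary alike for all members. WT replicate 3 was the lowest WT library for 8 of the 9 genes, all but Cd27. WT replicate 2 was the highest WT library for Rag1, Rag2, Il7r, Cd52 and Lsp1, and WT replicate 1 for Dntt, Flt3, Satb1 and Cd27. In Tg, replicate 4 was the highest for Dntt, Rag1, Rag2 and Il7r and the lowest for Flt3, Satb1 and Cd27. In KO, replicate 1 was the highest for Rag1, Rag2 and Il7r and the lowest for Dntt, Flt3, Satb1, Cd52 and Lsp1. In all 3 groups, then, Rag1, Rag2 and Il7r had the same highest library.

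Markers of other cells moved with some of these libraries. The summed level of 10 B cell markers, 2 of which (Ebf1 and Pax5) are also among the regulators described last, was 85.2, 548, 56.5 and 188 CPM in WT, 275, 118 and 234 in KO, and 28.4, 35.8, 39.9 and 99.3 in Tg. WT replicate 2, KO replicate 1 and Tg replicate 4 were the highest of their groups, the same libraries as for Rag1, Rag2 and Il7r. Pax5, which commits cells to the B lineage, was read at 10.7, 123, 4.22 and 35.4 CPM in WT, at 52.4, 18.3 and 44.1 in KO and at 1.55, 3.86, 1.08 and 17.6 in Tg, so that WT and Tg overlapped. Ms4a1, of mature B cells, lay at 1.63 CPM or less in every library. The immunoglobulin genes Ighm and Igkc, which are in no list here, lay at 237 to 5945 and 100.5 to 2523 CPM in WT and KO, and at 148 to 196 and 20.2 to 64.6 in Tg, below every other library. KO replicate 2 was their highest library. All 10 B cell markers had lower means in Tg than in WT, beside 49.2% of all genes with a log2 fold change below 0. Of these markers 0 were called against WT by edgeR and limma-voom and 4 by DESeq2. An unadjusted p under 0.05 was held by 9, beside 22.1% of all genes in either direction. Against KO 2 (Cd79b and Cd22) fell by edgeR. The sum of 8 NK cell markers was 13.1 to 26.5 CPM in WT, 22.2 to 33.9 in KO and 3.98 to 8.24 in Tg, and that of 10 T cell markers 47.6 to 67.1, 45.7 to 64.5 and 34.98 to 40.3. Over all genes, edgeR called 2.39% lower in Tg against WT and 3.06% against KO. In either direction DESeq2, run on the 55291 genes without the filter, called 1842 and 1891. Limma-voom called 639 and 844 of 17183 in either direction. By edgeR 4 NK cell markers fell against WT (6 by DESeq2, 2 by limma-voom) and 6 against KO (6 and 4). Of the T cell markers 1 (Lck) fell against WT (3 and 1) and 2 (Lck and Cd3g) against KO (3 and 1). The sum of 8 granulocyte-monocyte progenitor markers was 1435 to 3608 CPM in WT, 3866 to 5007 in KO and 4896 to 24192 in Tg, with 6 called higher in Tg against WT by all 3 tools, beside 2.54% of all genes by edgeR, and 3 against KO by edgeR, beside 2.63% (6 by DESeq2, 0 by limma-voom). Sums of 6 plasma cell markers (149 to 578, 267 to 323 and 128 to 177 CPM) and 8 macrophage markers (32.4 to 213, 30.1 to 127 and 19.4 to 119 CPM) overlapped between WT and Tg, with 2 and 3 of their genes called lower in Tg against WT by edgeR, 5 and 7 called by DESeq2, and 1 and 1 by limma-voom. Xbp1, at 89.8 to 145 CPM in Tg and 73.7 to 121 in WT, made up most of the plasma cell sum in each Tg library. Vcam1, at 15.3 to 107 CPM in Tg and 12.3 to 129 in WT, did so for the macrophage sum. Of these lists 5 of 6 and 7 of 8 genes had a log2 fold change below 0 against WT, beside 49.2% of all genes. Of the 12 marker lists, Klk1 (plasmacytoid dendritic cells) had 0 counts in all libraries and Ly6g (neutrophils) in all of Tg. The part of these cells in the results for the lymphoid priming genes was not tested.

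**Figure D4:**
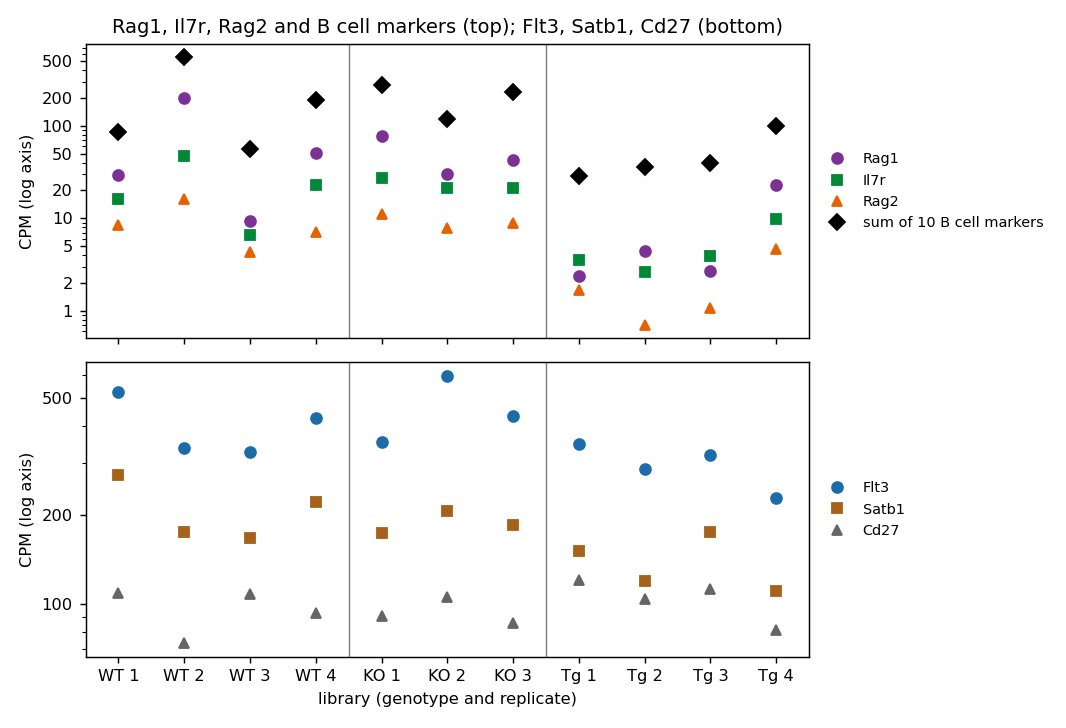
CPM (log axis) in each library of Rag1, Il7r, Rag2 and the sum of 10 B cell markers (top) and of Flt3, Satb1 and Cd27 (bottom). In each group the library with the highest Rag1 level (WT replicate 2, KO replicate 1, Tg replicate 4) also has the highest B cell marker sum.

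The genes most alike to each member were sought by Pearson's r of log2 CPM over the 11 libraries among 9989 protein-coding genes whose mean reached 5 CPM. These r are descriptions. The libraries share their group differences, so r of the deviations from the group means is given second. Dntt was most like Gimap6 (0.981, 0.967), a GTPase of lymphocytes, Cmah (0.972, 0.952), a sialic acid hydroxylase, and the T cell kinase gene Lck (0.967, 0.825). Rag1 was most like Sdc4 (0.989, 0.975), the B cell receptor gene Cd79a (0.989, 0.979) and the B cell adaptor gene Blnk (0.988, 0.979). Il7r was most like Cd36 (0.986, 0.965), Blnk (0.986, 0.970) and Grap2 (0.983, 0.949), and Rag2 like St3gal6 (0.973, 0.974), Grap2 (0.965, 0.897) and Il7r (0.963, 0.888). Blnk was thus near both Rag1 and Il7r, with means of 46.6 CPM in WT, 43.8 in KO and 7.64 in Tg. Lsp1 was most like Kmo (0.979, 0.862) and Smim7 (0.969, 0.864). Cd52 was most like Fam234b (0.962, 0.932), the lysosomal protease gene Ctss (0.959, 0.896) and Pold4 (0.946, 0.857). Flt3 was most like Nim1k (0.930, 0.875), P2rx7 (0.929, 0.902) and Nub1 (0.912, 0.827). Satb1 was most like Phf14 (0.958, 0.922), Gng2 (0.947, 0.886) and Ypel1 (0.939, 0.930), and Cd27 like Mrnip (0.928, 0.933), Tnfrsf18 (0.922, 0.975) and Rpl34 (0.918, 0.921). The gene nearest to Rag1, Rag2, Il7r, Dntt and Lsp1 had r of at least 0.973, that nearest to Flt3 and Cd27 of at most 0.930.

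Other genes of the same pathways were described as lists, with calls over all genes. Beside these calls, edgeR called 2.39% of all genes lower in Tg against WT and 3.06% against KO. Of 14 V(D)J recombination and end-joining genes, 1 fell in Tg against both other groups: Xrcc6, which encodes the Ku70 subunit that binds broken ends (-0.63, SE 0.10, adjusted p = 0.0125 against WT by edgeR; 118 ± 13.8 CPM in WT, 114 ± 1.02 in KO, 76.4 ± 10.2 in Tg). The other 13, among them Prkdc (168 ± 9.93 CPM in WT, 172 ± 15.9 in Tg), were not called by edgeR, and the list's median was -0.11 against WT. DESeq2 also called Hmgb1, which encodes a DNA-bending protein, against WT (-0.51, SE 0.15, adjusted p = 0.0775 by edgeR).

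Of 17 genes of IL-7 and FLT3 receptor signalling edgeR and limma-voom called 0 in each comparison. DESeq2 called 1 in Tg against WT and 1 in Tg against KO, Stat5b, which was also the 1 gene of the list with an unadjusted p under 0.05 there. Stat5b, a transcription factor activated by both receptors, stood at -0.28 against WT (SE 0.08, adjusted p = 0.0601). The list had medians of -0.01 against WT and -0.01 against KO. Of the 4 tested genes for the CD27 ligand and adaptors edgeR, DESeq2 and limma-voom called 0. Traf5, which encodes an adaptor of CD27, was the 1 with an unadjusted p under 0.05 (-0.62 against KO, SE 0.24, adjusted p = 0.166 by edgeR).

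Of 22 lymphoid transcription regulators 5 fell in Tg against WT by edgeR and none rose, and the same 5 fell against KO. Against WT, limma-voom called 4 of these, all but Ikzf3, and DESeq2 called all 5 and Irf4, Gfi1 and Spi1, of which Gfi1 (0.72) and Spi1 (0.49) had higher means in Tg. The list's median was -0.29 against WT. Tcf7, a T-lineage factor, fell by 1.08 against WT (SE 0.19, adjusted p = 0.0135, edgeR) and fell by 1.37 against KO (SE 0.20, adjusted p = 0.0040). Notch1, the receptor that directs T-lineage commitment, changed by -0.59 and -0.71. Tcf4, which encodes an E protein, changed by -0.56 and -0.50, and Ikzf1, which encodes Ikaros, by -0.31 and -0.37. The fifth was Ikzf3, the gene of a close relative of Ikaros, at 0.599 ± 0.401 CPM in Tg and 2.89 ± 1.78 in WT. Ebf1 and Pax5, the regulators of B-lineage commitment, were not called (-2.88, SE 1.03, and -2.85, SE 1.06, against WT).

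Of 16 tested genes of lymphoid-primed progenitors outside the 9, Ccr7, a chemokine receptor gene, fell against WT by edgeR (-1.91, SE 0.47, adjusted p = 0.0419), where DESeq2 called 4 (Ccr7, Blnk, Lax1 and Ly6d) and limma-voom 0. Of the list, 0 were called against KO by edgeR, 2 by DESeq2 and 0 by limma-voom. An unadjusted p under 0.05 in edgeR was held by 8 there, beside 21.7% of all genes in either direction. The list's median was -0.79 against WT and -0.60 against KO. Of its 16 genes 13 and 14 lay below, beside 49.2% and 47.96% of all genes. In KO against WT edgeR, DESeq2 and limma-voom called 0 genes of these 5 lists. There 3 had an unadjusted p under 0.05 in edgeR, beside 7.09% of all genes tested.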

How the data were processed

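RNA of LSK cells was sequenced from 11 mice, and the table deposited by the authors holds unnormalised counts of reads for each gene symbol. FastQC, Trimmomatic, STAR, HTSeq and the build mm10 are named in the submitters' processing notes. For versions, annotation, strand setting and filters, values were not given in the sources used here.

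All libraries were fitted together in edgeR 4.0.16 (R 4.3.3), with TMM factors, filterByExpr and no covariate, and tested by quasi-likelihood with Benjamini-Hochberg adjustment over 17183 genes at 0.05. CPM use TMM-scaled library totals. The SE was derived from each F statistic. Limits from counts cover counting error only, as no molecular identifiers are described. Each library is labelled as its own mouse. The p-values set group differences against the spread between these libraries, an estimate shared in part across genes.

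Exon lengths and coordinates come from GENCODE M21 on GRCm38, and start sites from RefSeq on GRCm38.p6. The members and lists were chosen with earlier results of these data known. Named were all 9 members, the 3 genes most alike to each, and from each pathway list up to 4 called genes with the lowest p, or else the gene with the lowest p. Ikzf3, Irf4, Gfi1, Spi1, Prkdc, Hmgb1, Blnk, Lax1, Ly6d, Ebf1, Pax5 and the single markers were named after their values were seen. A few single-gene results are not reported here.

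Alternatives were DESeq2 1.42.0, limma-voom (limma 3.58.1), 3 other scalings, no filter, a filter of 2 CPM in 3 libraries, the compared groups fitted alone, a replicate block, the Y-linked level as a covariate, robust empirical Bayes, and each library left out. One more was added after the data were examined: a fit without the libraries in which Xist and Y-linked reads occurred together. The fit was tested on simulated data.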

Additional observations from a re-analysis of the deposited data

Results flagged for a closer look

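In Tg replicate 2, Cd52 lay at 18.0 CPM, apart from the other 3 Tg libraries, which held 20.96 to 21.5. It was the 1 library that stood off by its distance to the nearest, among 18 groups of 4 libraries looked at (9 genes in WT and Tg), where chance gives about 1 in 20.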

How the results depend on the processing

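The number of members called lower in Tg against WT was 4, and it was 2 with only the groups compared, the replicate block or robust empirical Bayes, 7 in DESeq2, and from 2 to 7 with 1 library left out. It was 0 without the 5 libraries in which Xist and Y-linked reads occurred together, a fit with 1 WT and 1 KO library, each assumed to vary like the Tg libraries. In Tg against KO it was 5, and 3 with upper quartile factors, library totals only, the replicate block or robust empirical Bayes, from 3 to 6 with 1 library left out, and 0 without those 5 libraries. The cause was not tested. Between groups, deviations of same-numbered libraries correlated between -0.245 and 0.0959, and those of differently numbered libraries between -0.344 and 0.308. No pairing by replicate number was seen, but correlations of so few libraries cannot show that there was none. The replicate block ended the calls of Il7r and Rag2 against WT (adjusted p = 0.0838 and 0.0781, edgeR) and against KO (0.0627 and 0.0703) and no other, and it lowered the calls over all genes from 846 to 221 against WT and from 978 to 303 against KO. DESeq2, run on the 55291 genes without the filter, raised them to 1842 and 1891, and in KO against WT from 4 to 107. In KO against WT every fit called 0 members, and some log2 fold changes changed sign, among them that of Rag1 (-0.52 with all libraries). With the Y-linked level as a covariate that of Dntt was 0.0086, of Il7r 0.62 and of Rag1 0.57. With the replicate block Il7r was 0.42 and Rag1 0.64, in limma-voom 0.35 and 0.22. Rag2 was -0.0111 with upper quartile factors and -0.0113 with library totals only. With 1 library left out Flt3 ran from -0.0317 to 0.35, Il7r from -0.32 to 0.61, Rag1 from -0.98 to 0.75, Rag2 from -0.20 to 0.49 and Cd27 from -0.13 to 0.0324. Without the 5 libraries Dntt was 0.36, Il7r 1.68, Rag1 2.18 and Satb1 0.145, and in Tg against WT Cd27 was -0.0452. The lowest count of a member in a library was 26, of Rag2.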
